A study of Homo sapiens with 6 samples.

Results

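The transcripts of 46 genes that license replication origins and build the replication fork were followed in PK-1 and Panc-1 cells treated with an inhibitor of retinoic acid receptor γ (RARγ). The 46 genes were taken by symbol, as 46 of the 53701 gene symbols in the deposited tables, and each occurred in 1 entry. They comprise the subunits of the MCM2 to MCM7 helicase, the origin recognition complex (ORC1 to ORC6), the licensing factors CDC6, CDT1 and GMNN, the helicase partners CDC45, MCM10 and GINS1 to GINS4, the DBF4-CDC7 kinase, the fork protection genes TIPIN, TIMELESS and CLSPN, the replicative polymerases, the PCNA clamp and its loader RFC1 to RFC5, the Okazaki fragment enzymes FEN1 and LIG1, and the single-strand binding proteins RPA1 to RPA3. PK-1 and Panc-1 are established lines grown from human pancreatic ductal adenocarcinoma. Each line gave 1 control library, 1 library of cells exposed for 24 h to RARγi-1 (LY2955303) and 1 library of cells exposed for 24 h to RARγi-2 (MM11253), so there were 6 libraries and no replicates. The labels call the controls only control, and neither the vehicle nor the doses of the RNA sequencing are stated. The treatment entry of both RARγi-2 libraries names RARγi-1, and the libraries were therefore grouped by their titles. The sequencing was done to follow how RARγ inhibition acts on proliferation and the cell cycle.

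Before S phase, ORC marks origins and, with CDC6 and CDT1, loads MCM2 to MCM7 rings onto the DNA, a step called licensing, while geminin (GMNN) keeps CDT1 from loading rings again once replication has begun. Cyclin-dependent kinases and DBF4-CDC7 then let CDC45 and GINS join the ring, which becomes the moving helicase, and polymerases α, δ and ε copy the strands with the help of PCNA, RFC and RPA. Many of these genes are transcribed as cells pass from G1 to S phase under E2F transcription factors, whereas most ORC subunits are made throughout the cell cycle.

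The promoters of the genes were read from a RefSeq table on GRCh38.p14, which holds the 250 bases before and the 50 bases after each gene's start. A promoter was found for 40 of the 46 genes, in 51 windows. MCM4, MCM5, GINS4, POLD3, RPA2 and RPA3 were not matched. The E2F words TTTCCCGC, TTTCGCGC, TTTGCCGC and TTTGGCGC were searched on both strands, and overlapping words were each counted. At least 1 of these words lay in the promoters of 21 of the 40 genes (52.5%), against 3.99% of the 27305 genes in the table and 7.29% of the genes with enough transcript in both lines, a mean of at least 5 TPM. In all, 26 of the 46 genes fell more than 2-fold in each of the 4 treated libraries against the control of the line, as did 2.49% of all genes compared. They are the same 26 genes that fell more than 2-fold in Panc-1 with RARγi-1. Of these, 23 had a promoter and 16 held a word (69.6%), and among the other members it was 5 of 17 (29.4%), namely CDC6, GINS3, ORC3, POLA1 and TIPIN. The 7-base cores, which are the same words without their first T, were found in 78.3% and 64.7% of these sets and in 26.4% of the genes with enough transcript. CCAAT, the site of the factor NF-Y, was found in 60% of the 40 genes and in 44% of the genes with enough transcript, and in 56.5% of the genes that fell in all 4 against 64.7% of the other members. TTTGAA, one form of the cell cycle homology region bound by the DREAM complex, was found in DBF4 alone (2.5%), against 12.6%. A match is a description of letters and does not show that a factor binds there.

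The sequences below are the 150 bases before the start, 5′ to 3′ on the strand of the gene, for the 3 genes with the lowest and the 3 with the highest mean log2 fold change among the 40 with a promoter, so that the promoters of both extremes can be compared. MCM4, lower still at -2.94, is not among these 40. Capitals mark E2F cores and CCAAT in either orientation.
MCM3, chr6:52284743-52284892, minus strand, mean log2 fold change -2.84: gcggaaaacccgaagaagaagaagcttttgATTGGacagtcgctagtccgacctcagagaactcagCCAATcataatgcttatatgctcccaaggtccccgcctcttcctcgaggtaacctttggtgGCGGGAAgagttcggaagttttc
MCM10, chr10:13161408-13161557, plus strand, -2.81: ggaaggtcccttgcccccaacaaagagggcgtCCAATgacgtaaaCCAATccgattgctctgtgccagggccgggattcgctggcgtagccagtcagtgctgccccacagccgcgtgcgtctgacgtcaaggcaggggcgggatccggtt
MCM2, chr3:127598261-127598410, plus strand, -2.63: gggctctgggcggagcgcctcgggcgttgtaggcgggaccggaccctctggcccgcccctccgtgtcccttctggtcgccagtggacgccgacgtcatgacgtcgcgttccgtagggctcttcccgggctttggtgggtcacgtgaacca
RFC1, chr4:39366363-39366512, minus strand, 0.27: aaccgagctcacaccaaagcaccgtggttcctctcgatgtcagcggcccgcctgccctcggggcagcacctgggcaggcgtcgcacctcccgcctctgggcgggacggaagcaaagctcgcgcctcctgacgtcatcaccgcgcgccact
ORC4, chr2:148021552-148021701, minus strand, 0.06, the first of 2 windows: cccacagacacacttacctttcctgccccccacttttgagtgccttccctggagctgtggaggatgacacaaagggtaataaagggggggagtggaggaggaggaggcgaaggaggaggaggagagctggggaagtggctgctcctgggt
CDC6, chr17:40287729-40287878, plus strand, 0.03: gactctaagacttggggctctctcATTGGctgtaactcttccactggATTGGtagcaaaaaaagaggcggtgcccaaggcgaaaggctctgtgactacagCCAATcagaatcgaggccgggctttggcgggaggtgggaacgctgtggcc
CDC6, around its E2F word, chr17:40287875-40287904, plus strand: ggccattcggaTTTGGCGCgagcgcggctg
Outside its stretch MCM3 held a CCAAT at base -242 and an E2F word at base -174, and an E2F word beginning at base -4 ran past its end. The E2F words of MCM2 lay just after its start, beyond the stretch shown. RFC1 likewise held E2F cores, at bases 35 and 38 after its start, and a CCAAT at base -188, all outside its stretch, while MCM10 held no E2F word or core in its whole window. CDC6, which did not fall more than 2-fold in any library, held an E2F word beginning at base 8, counting the start as 1, and CCAAT boxes upstream.

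The authors deposited log2 values of TPM, a measure of transcript abundance corrected for transcript length and library size, with everything at or under 1 TPM set to 1 TPM. A fold change is given on the scale of log2 of TPM plus 1, treated library over the control library of the same line, which understates the change of genes with few transcripts. Genes with a mean of at least 5 TPM over the 3 libraries of a line were compared, 10623 genes for PK-1 and 10424 for Panc-1, and a gene past 2-fold is said to have risen or fallen. All 46 genes passed this minimum in both lines, the lowest line mean being 6.85 TPM, and none was at 1 TPM or less in any library. With 1 library per condition no difference has a replicate check, and an interval was not computed because TPM carry no read depth. KRT8, KRT18 and KRT19, keratins of ductal epithelium, lay between 157 and 6408 TPM in the 6 libraries. They were lower in the treated Panc-1 libraries, with log2 fold changes of -2.43 and -2.64 for KRT8, -1.99 and -2.19 for KRT18 and -2.55 and -3.21 for KRT19, against -0.11 to -0.92 in PK-1, and their part in the results was not tested. EPCAM was 9.18 to 19.4 TPM in Panc-1, and CDH1 was at 1 TPM or less there. Of 7 markers of leukocytes, endothelium, fibroblasts and acinar cells, 6 were at 1 TPM or less in all 6 libraries. The exception was the acinar gene PRSS1, at 1.06, 11.1 and 21.2 TPM in the control, RARγi-1 and RARγi-2 libraries of PK-1, whose part in the results was not tested. RARG was 51.1, 37.5 and 23.5 TPM in PK-1 cells and 30.1, 8.83 and 3.27 TPM in Panc-1 in the same order, RARA was 33.6, 30.5 and 18.7 TPM and 11.5, 8.20 and 7.28 TPM, RARB was at 1 TPM or less throughout, and the retinoic acid target FABP5 was 516.5, 170.3 and 149 TPM in PK-1 cells and 234, 179.8 and 166 TPM in Panc-1.

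Most replication genes fell with either inhibitor in both lines. In PK-1, 37 of 46 fell more than 2-fold with RARγi-1, where 5.36% of all genes compared did, and 40 fell with RARγi-2, where 14.1% of all genes did. In Panc-1, 26 fell with RARγi-1 against 6.45% of all genes, and 31 fell with RARγi-2 against 12% of all genes. None of the 46 rose more than 2-fold in any comparison, while 10.3%, 13.3%, 8.29% and 9.59% of all genes did in the same order. The median log2 fold change of the 46 genes was -1.67 and -2.52 in PK-1 cells and -1.22 and -1.51 in Panc-1, and the median over all genes compared was 0.15, -0.01, 0.08 and -0.03. Rescaling the libraries by median ratios took about 0.11 off every log2 fold change of PK-1 with RARγi-1 and left the count there at 37. The genes together made up 3840 TPM in the PK-1 control and 1288 and 827 TPM after RARγi-1 and RARγi-2, and 3283, 1514 and 1361 TPM in Panc-1. In RNA from a whole culture, fewer cells in S phase and less transcript per cell cannot be told apart.

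The comparisons behind the 26 genes that fell in all 4 are not independent. Those of a line share its control library. The 26 are also exactly the genes that fell in Panc-1 with RARγi-1, the comparison with the fewest falls, so that comparison alone sets the list. A further 5 genes fell in 3 comparisons (POLA1, POLD3, RFC2, RFC5 and RPA1), 6 in 2 (DBF4, GINS3, ORC6, RPA2, TIMELESS and TIPIN) and 3 in 1 (POLD2, RFC4 and RPA3). CDC6, ORC2, ORC3, ORC4, ORC5 and RFC1 passed 2-fold in none. With a pseudocount of 5 TPM the count in all 4 was 23, since GINS4, CDC7 and PRIM2 no longer passed 2-fold in Panc-1 with RARγi-1 (-0.83, -0.89 and -0.98), nor PRIM2 in PK-1 with RARγi-1 (-0.98). The count of genes that fell in all 4 was 13 with a 3-fold threshold. It was 14 with a mean of at least 20 TPM, which leaves out members under that mean before any are counted.

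**Figure D1:**
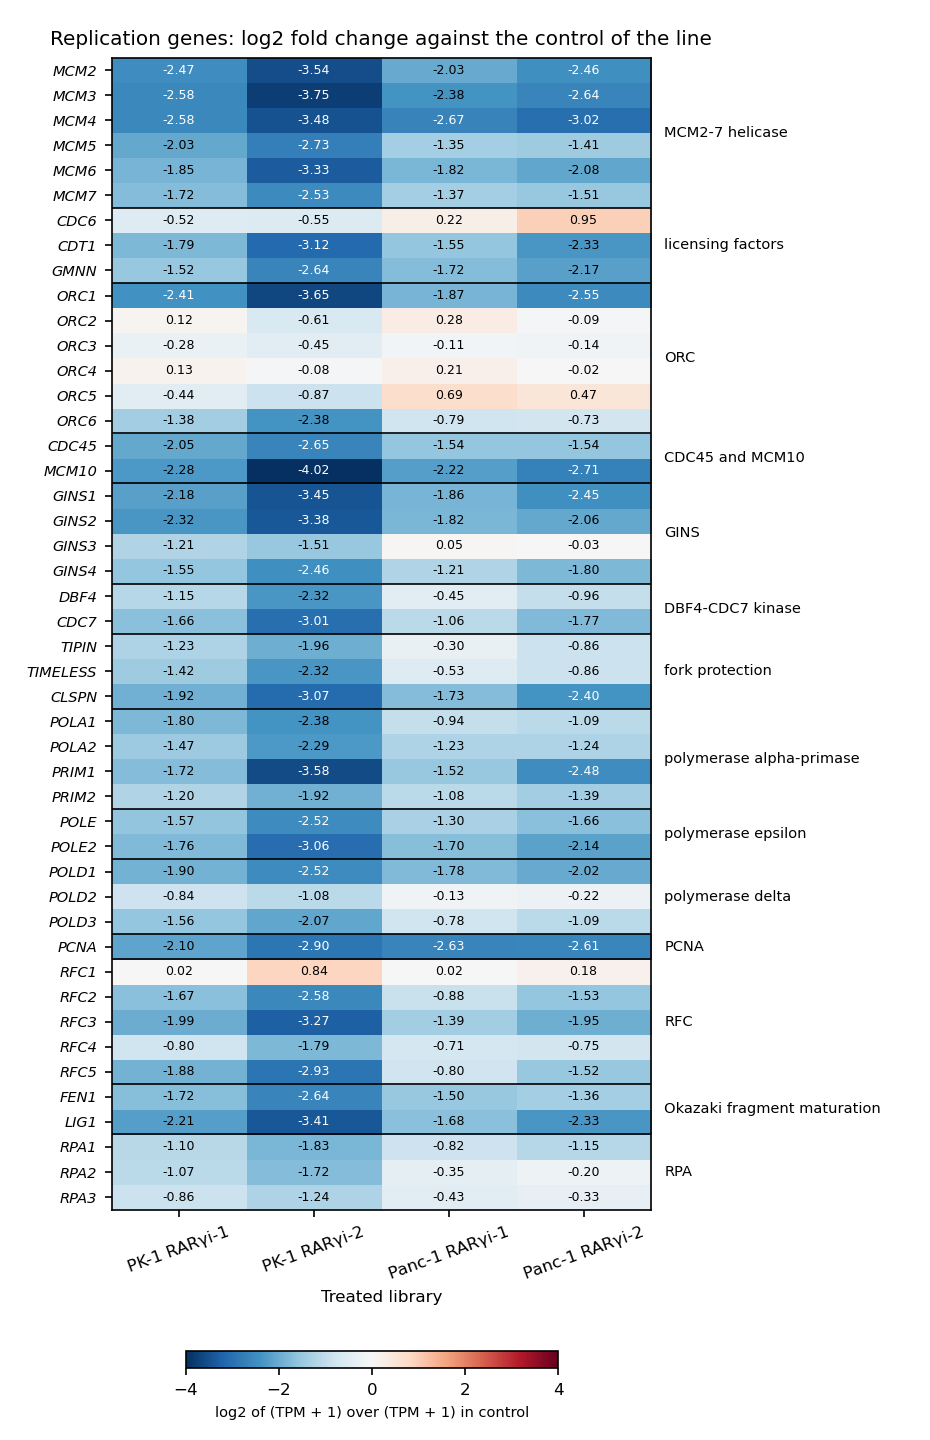
Log2 fold change of each of the 46 genes (rows, grouped by complex) in the 4 treated libraries (columns), each against the control library of its line, with the value printed in the cell and blue for lower. The MCM2 to MCM7 rows are at -1.35 or lower in all columns, while CDC6, ORC2 to ORC5 and RFC1 stay within 2-fold of the control.

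The MCM2 to MCM7 helicase, the ring that licensing loads and that later opens the DNA, fell as a whole. All 6 subunits fell past 2-fold in every comparison, with a median log2 fold change of -2.25 and -3.40 in PK-1 cells and -1.92 and -2.27 in Panc-1 for RARγi-1 and RARγi-2. MCM2 went from 129.6 TPM in the PK-1 control to 22.5 with RARγi-1 and 10.2 with RARγi-2, and from 146 to 35.1 and 25.7 TPM in Panc-1. MCM3 went from 124.9 to 20.1 and 8.35 TPM in PK-1 cells and from 170.9 to 32.0 and 26.5 TPM in Panc-1. MCM4 had the lowest log2 fold changes of the ring in Panc-1, -2.67 and -3.02, going from 101 to 15.01 and 11.6 TPM. The ring's subunits act in equal numbers, yet their transcripts did not fall by the same factor. MCM7, the most abundant, kept 74.1 and 41.9 of 247 TPM in PK-1 cells and 109 and 98.3 of 282 TPM in Panc-1, and MCM5 kept 57.1 and 54.8 of 147 TPM in Panc-1. The ratio of the highest to the lowest of the 6 TPM values was 3.34 in the PK-1 control, 4.65 with RARγi-1 and 6.49 with RARγi-2, and 3.83, 7.24 and 8.45 in Panc-1. MCM7 shares 277 exon bases with AP4M1 on the other strand, and whether the counting used strand is not stated.

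The loading factors did not move together. CDT1, which brings the helicase to ORC, went from 71.1 to 19.9 and 7.28 TPM in PK-1 cells and from 41.8 to 13.6 and 7.53 TPM in Panc-1, a fall of more than 2-fold in all 4 libraries. GMNN, the inhibitor of CDT1, also fell in all 4, from 82.7 to 28.1 and 12.5 TPM in PK-1 cells and from 100.1 to 29.6 and 21.5 TPM in Panc-1. CDC6, the ATPase that acts with CDT1, did not pass 2-fold: it was 188.7, 131.5 and 128 TPM in PK-1 cells and 42.8, 49.98 and 83.6 TPM in Panc-1. Its log2 fold change was -0.52 and -0.55 in PK-1 cells and 0.22 and 0.95 in Panc-1, so that both treated libraries lay below the control in one line and above it in the other. CDC6 thereby went from 2.65 times CDT1 in the PK-1 control to 6.62 and 17.6 times, and from 1.02 times to 3.66 and 11.1 times in Panc-1. In the PK-1 library treated with RARγi-2 it was the most abundant of the 46 transcripts. CDC6 lies on chromosome 17 between WIPF2 and RARA, whose log2 fold changes in the 4 comparisons were 0.39, 0.39, 0.21 and 0.28 for WIPF2 and -0.14, -0.81, -0.45 and -0.60 for RARA.

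Within ORC, the largest subunit gene fell with the helicase and the core did not pass 2-fold. ORC1, the ATPase subunit that is degraded and remade in each cell cycle, went from 37.8 to 6.29 and 2.09 TPM in PK-1 cells and from 23.1 to 5.59 and 3.12 TPM in Panc-1, log2 fold changes of -2.41, -3.65, -1.87 and -2.55. ORC2 to ORC5, the core of the complex, had no value past 2-fold, and their median log2 fold change was -0.08 and -0.53 in PK-1 cells and 0.25 and -0.06 in Panc-1. ORC5 was the widest of them, at -0.44 and -0.87 in PK-1 cells and 0.69 and 0.47 in Panc-1. ORC2 was at 0.12 and -0.61 in PK-1 cells and 0.28 and -0.09 in Panc-1. ORC3 lay between -0.45 and -0.11 and ORC4 between -0.08 and 0.21. All 4 of ORC2 to ORC5 were below 0 in PK-1 with RARγi-2. ORC4 shares 430 exon bases with ACVR2A on the other strand, which reached 5.68 TPM. ORC6, the subunit bound most loosely to the core, fell in PK-1, from 82.7 to 31.2 and 15.1 TPM, and was 46.6, 26.6 and 27.6 TPM in Panc-1, under 2-fold. ORC1 was 1.55 times the median of ORC2 to ORC5 in the PK-1 control and 0.252 and 0.121 times after treatment, and 0.886, 0.173 and 0.109 times in Panc-1.

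**Figure D2:**
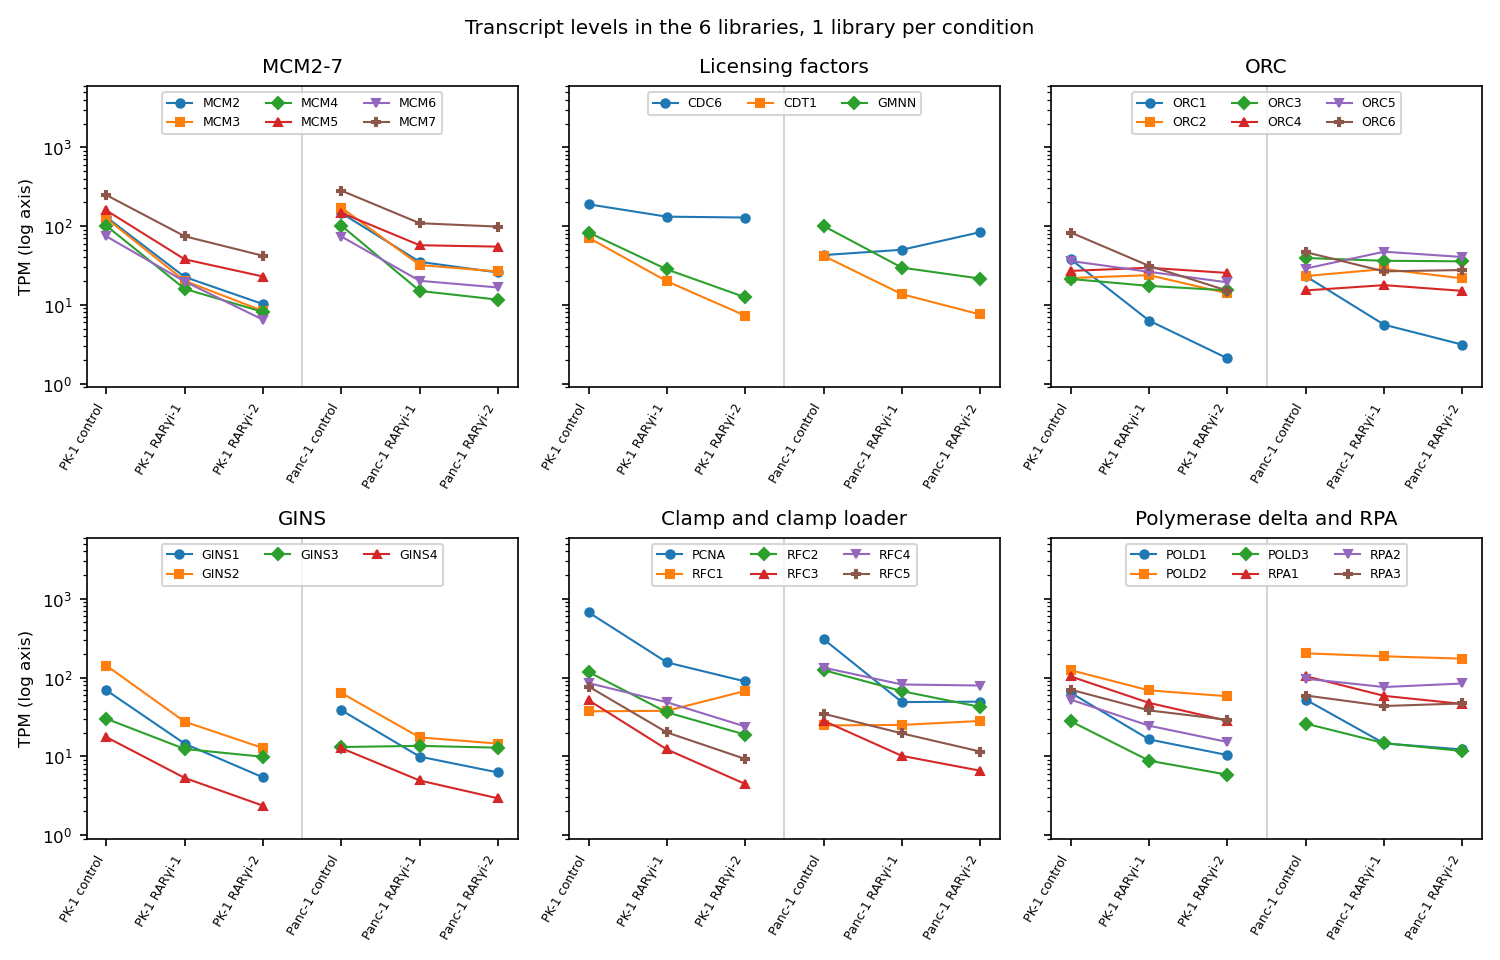
TPM on a log axis of the genes of 6 groups in the control, RARγi-1 and RARγi-2 library of each line, 1 point per library. The MCM2 to MCM7 lines descend together, while CDC6, ORC2 to ORC5 and RFC1 stay within 2-fold of the control in both lines. In Panc-1 so do ORC6, GINS3, RFC4, POLD2, RPA2 and RPA3.

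Among the factors that turn the loaded ring into the moving helicase, MCM10 and CDC45 fell in all 4 comparisons. MCM10, needed to start unwinding, went from 43.9 to 8.23 and 1.77 TPM in PK-1 cells and from 19.97 to 3.51 and 2.21 TPM in Panc-1. Its log2 fold change of -4.02 with RARγi-2 in PK-1 was the lowest of the 46 genes, and 8 of the 10623 genes compared in PK-1 were lower. CDC45 went from 85.9 to 19.9 and 12.8 TPM in PK-1 cells and from 51.7 to 17.1 TPM in both treated Panc-1 libraries. The GINS complex, the other partner of the ring, was split. GINS1, GINS2 and GINS4 fell in all 4 comparisons, with log2 fold changes from -1.21 to -3.45. GINS3 was 30.0, 12.4 and 9.86 TPM in PK-1, a fall with both inhibitors, but 13.1, 13.6 and 12.9 TPM in Panc-1. GINS3 was thus 0.436 times the median of the other subunits in the PK-1 control and 1.83 times with RARγi-2, and 0.341 and 2.06 times in Panc-1.

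The DBF4-CDC7 kinase, which phosphorylates the loaded ring so that it can fire, fell in PK-1 in both subunits. CDC7, the catalytic subunit, went from 22.9 to 6.54 and 1.97 TPM in PK-1 cells and from 28.1 to 12.9 and 7.53 TPM in Panc-1, past 2-fold in all 4. DBF4, its activator, went from 28.8 to 12.4 and 4.99 TPM in PK-1, and was 30.4, 21.9 and 15.2 TPM in Panc-1, just under 2-fold with RARγi-2 at -0.96. Without a pseudocount this last value passed 2-fold. DBF4 shares 121 exon bases with SLC25A40 on the other strand, which was 7.43 to 14.95 TPM. The fork protection genes showed the same split by line. CLSPN, the mediator of the replication checkpoint, fell in all 4, from 17.6 to 3.92 and 1.23 TPM in PK-1 cells and from 21.8 to 5.89 and 3.31 TPM in Panc-1. TIMELESS and TIPIN, which travel with the fork as a pair, fell only in the PK-1 libraries, with log2 fold changes of -1.42 and -2.32 for TIMELESS and -1.23 and -1.96 for TIPIN, and were between -0.30 and -0.86 in Panc-1.

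Of the polymerase genes, POLA2, PRIM1, PRIM2, POLE, POLE2 and POLD1 fell in all 4 comparisons, and POLA1, POLD2 and POLD3 in fewer. Of polymerase α-primase, which lays down the primers, PRIM1 had the lowest log2 fold change in 3 of the 4 comparisons, going from 55.0 to 15.99 and 3.67 TPM in PK-1 cells and from 52.0 to 17.5 and 8.52 TPM in Panc-1. POLA2 and PRIM2 had log2 fold changes from -1.08 to -2.29. POLA1, the catalytic subunit, fell in 3, and its value of -0.94 in Panc-1 with RARγi-1 was -1.02 without a pseudocount. PRIM2 has a partial duplicate in the genome, which makes its level uncertain. POLE and POLE2, of the leading strand polymerase ε, fell in all 4, from -1.30 to -3.06. In polymerase δ, which copies the lagging strand, the catalytic subunit POLD1 went from 64.0 to 16.4 and 10.4 TPM in PK-1 cells and from 52.4 to 14.6 and 12.2 TPM in Panc-1, past 2-fold in all 4. Its partner POLD2 was 123.9, 68.7 and 57.9 TPM in PK-1, past 2-fold with RARγi-2 only, and 203, 186 and 174 TPM in Panc-1. POLD2 went from 1.94 to 4.20 and 5.59 times POLD1 in PK-1, and from 3.88 to 12.8 and 14.2 times in Panc-1, where it was the most abundant of the 46 transcripts in both treated libraries. POLD3, a subunit that binds PCNA, fell in all but Panc-1 with RARγi-1, where its log2 fold change was -0.78.

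PCNA, the clamp that tethers polymerase to DNA, was the most abundant of the 46 transcripts in both controls. It went from 672 to 156 and 89.2 TPM in PK-1 cells and from 307 to 48.8 and 49.4 TPM in Panc-1, and fell in all 4 comparisons. Its loader had one subunit that did not follow. RFC1, the large subunit, was 37.2, 37.8 and 67.6 TPM in PK-1 cells and 24.6, 25.0 and 28.1 TPM in Panc-1, and its log2 fold change of 0.84 with RARγi-2 in PK-1 was the highest of the 46 genes there. RFC2 to RFC5, the small subunits shared by the other clamp loaders of the cell, had a median of -1.78 and -2.75 in PK-1 cells and -0.84 and -1.52 in Panc-1. RFC3 fell in all 4, from 51.5 to 12.2 and 4.45 TPM in PK-1 cells and from 28.2 to 10.1 and 6.56 TPM in Panc-1. RFC4 fell only with RARγi-2 in PK-1, from 85.1 to 23.9 TPM. RFC1 was 0.460 times the median of the small subunits in the PK-1 control and 1.35 and 4.82 times after treatment, and 0.310, 0.577 and 1.04 times in Panc-1.

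FEN1, which trims the flap between Okazaki fragments, and LIG1, which joins them, fell in all 4 comparisons. LIG1 went from 47.5 to 9.49 and 3.57 TPM in PK-1 cells and from 27.1 to 7.80 and 4.58 TPM in Panc-1. FEN1 went from 155 to 46.4 and 24.0 TPM in PK-1 cells and from 142 to 49.7 and 55.0 TPM in Panc-1. FEN1 shares 166 exon bases with TMEM258 on the other strand, which was 297 to 569 TPM and highest in the RARγi-2 libraries of each line. The RPA subunits, which coat single-stranded DNA in replication and also in repair, had the smallest median changes of any group outside ORC. Their median log2 fold change was -1.07 and -1.72 in PK-1 cells and -0.43 and -0.33 in Panc-1. RPA1 was 103, 47.7 and 28.2 TPM in PK-1 cells and 104, 58.6 and 46.2 TPM in Panc-1. RPA2 was 52.3, 24.4 and 15.2 TPM in PK-1, a fall with both inhibitors, and 96.5, 75.8 and 84.1 TPM in Panc-1. RPA3 passed 2-fold only with RARγi-2 in PK-1, at -1.24.

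The RARγi-2 library was lower than the RARγi-1 library for most of the genes, more so in PK-1. This difference does not use the control, and its robust standard deviation over all genes compared (a scaled median absolute deviation) was 0.40 in PK-1 and 0.31 in Panc-1 on the log2 scale. That figure also holds real differences between the inhibitors. In PK-1 the median difference of the 46 genes was -0.90, against -0.16 over all genes, with 45 of 46 below 0 and 39 below -0.40, where 27.2% of all genes were. The largest differences were those of PRIM1 (-1.86), MCM10 (-1.74) and MCM6 (-1.48), and RFC1 was the one gene higher with RARγi-2 (0.82). In Panc-1 the median was -0.31, against -0.11 over all genes, with 39 of 46 below 0 and 22 below -0.31, where 26.7% of all genes were. PRIM1 was again lowest (-0.96), followed by CDT1 (-0.78), while PCNA (0.02) and CDC45 (0.00) did not differ beyond this spread and CDC6 was higher with RARγi-2 (0.73). The doses of the RNA sequencing are not stated, so these are differences between libraries and not between compounds at a matched dose. In the paper's 24 h cell cycle assay of these lines, the concentration of RARγi-2 was higher than that of RARγi-1.

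**Figure D3:**
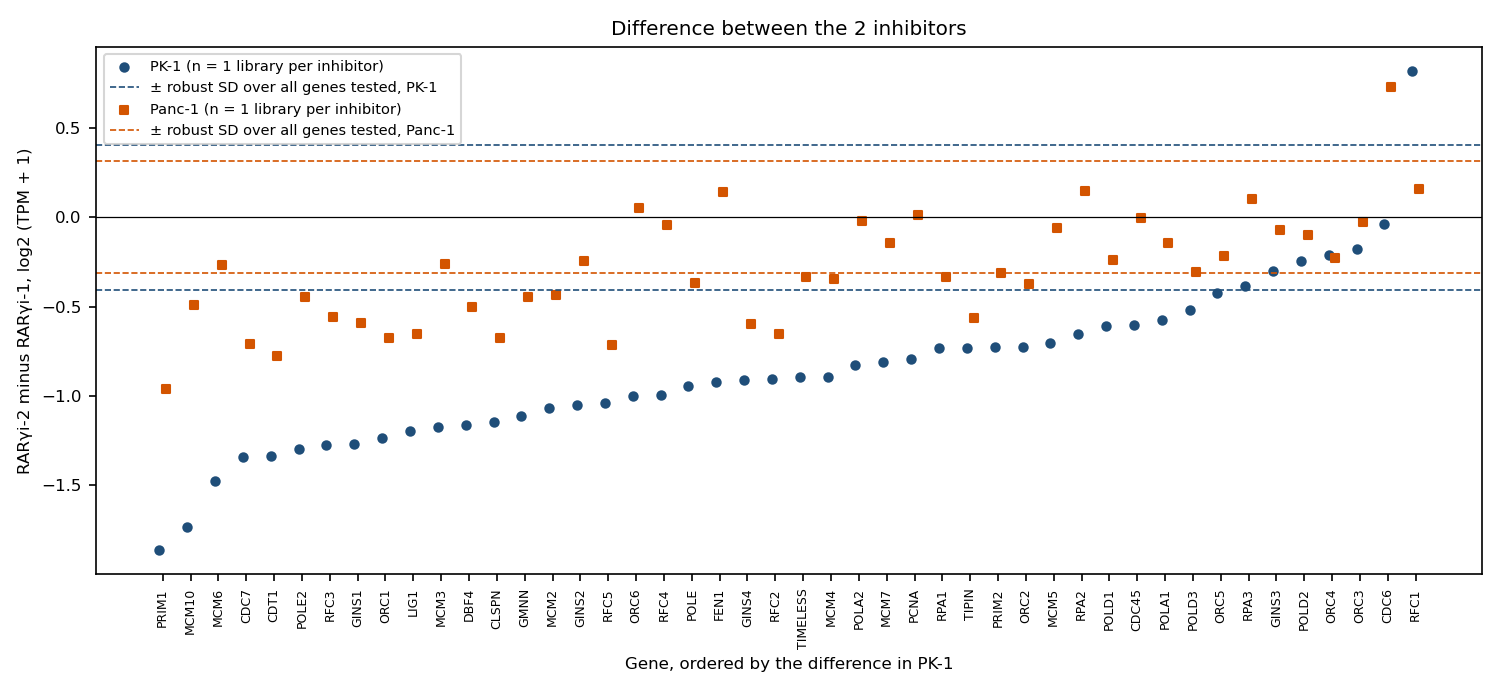
Difference in log2 of TPM plus 1 between the RARγi-2 and the RARγi-1 library of each line for the 46 genes, ordered by the value in PK-1, with dashed lines at the robust standard deviation over all genes compared. In PK-1 (circles) 39 genes lie under the lower line and RFC1 above the upper line, and in Panc-1 (squares) 22 genes lie under the lower line and CDC6 above the upper line.

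The fall was deeper in PK-1 than in Panc-1 for most genes, by a wider margin with RARγi-2. The log2 fold change in PK-1 minus that in Panc-1 had a median of -0.35 for RARγi-1 and -1.06 for RARγi-2, and of 0.01 and -0.06 over all genes. A limit of 0.51 combined the spreads of both lines, which are spreads between treated libraries and not between treated and control. It was passed downward with RARγi-1 by 19 of 46 genes, against 12.8% of all genes. With RARγi-2, 39 of 46 genes passed it downward, against 21.0% of all genes. With RARγi-1 the widest gaps were those of GINS3 (-1.26), ORC5 (-1.13) and RFC5 (-1.09), and PCNA fell further in Panc-1 by 0.53. With RARγi-2 they were those of ORC6 (-1.64), RPA2 (-1.52) and CDC6 (-1.50), and RFC1 lay on the other side (0.66). MCM4, GMNN, POLD1 and PCNA were among the genes that differed by less than the limit with RARγi-2, at -0.46, -0.47, -0.50 and -0.29. The control libraries did not differ in one direction: 19 of 46 genes were lower in PK-1, with a median log2 difference of 0.09. More than 2-fold higher in the PK-1 control were 6 genes, led by CDC6 at 2.12 on the log2 scale (188.7 against 42.8 TPM). The share of all genes that were more than 2-fold higher was not computed. POLA2 alone was more than 2-fold lower, at -1.41 (25.9 against 70.2 TPM), where 12.7% of all genes were. In the RARγi-2 libraries 42 of 46 genes were lower in PK-1 than in Panc-1, and the share over all genes was not computed. These RARγi-2 results and the PK-1 difference between inhibitors above use the same PK-1 RARγi-2 library, so they are not independent.

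**Figure D4:**
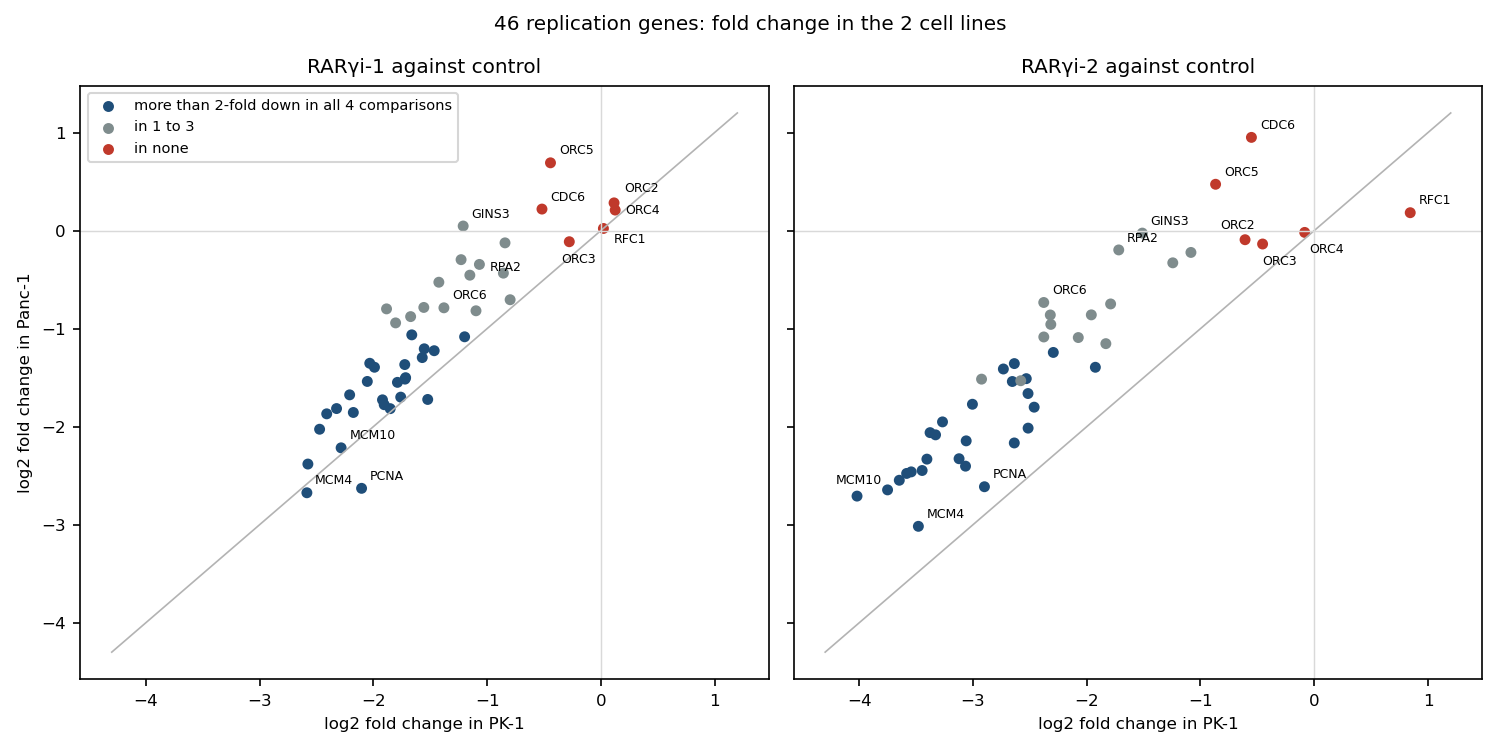
Log2 fold change in PK-1 (horizontal) and in Panc-1 (vertical) of the 46 genes with RARγi-1 (left) and RARγi-2 (right), coloured by the number of comparisons in which the gene fell more than 2-fold. Most points lie above the diagonal of equal change, which is a deeper fall in PK-1, and with RARγi-2 the median gap is -1.06.

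Another 26 genes that act at origins or forks were followed in the same way. Of these, 24 passed the minimum of 5 TPM in each line and 23 in both, where ATAD5 was under it in both lines, MTBP in Panc-1 and MCM9 in PK-1. In PK-1, 13 of 24 fell more than 2-fold with RARγi-1 and 17 with RARγi-2, where 5.36% and 14.1% of all genes did. In Panc-1, 7 and 9 of 24 did, against 6.45% and 12% of all genes. The median log2 fold change over these genes was -1.13 and -1.79 in PK-1 cells and -0.52 and -0.71 in Panc-1. Of the 23 genes, 7 fell in all 4 comparisons, against 2.49% of all genes compared. Another 6 passed 2-fold in none, a share that was not computed over all genes. TOP2A, the topoisomerase that untangles replicated chromosomes, went from 243 to 54.2 and 11.1 TPM in PK-1 cells and from 127 to 27.3 and 15.2 TPM in Panc-1. PCLAF, a PCNA-binding factor, went from 109 to 18.4 and 8.50 TPM in PK-1 cells and from 91.7 to 18.6 and 11.6 TPM in Panc-1. DSCC1, of the clamp loader that serves sister chromatid cohesion, went from 36.0 to 7.92 and 3.79 TPM in PK-1 cells and from 25.8 to 8.41 and 4.04 TPM in Panc-1. These genes thus lay lower with RARγi-2 than with RARγi-1 in both lines. Among the genes that passed 2-fold in none, the topoisomerase TOP1 had log2 fold changes of 0.42, 0.18, 0.38 and -0.03, and the RNase H2 subunits RNASEH2B and RNASEH2C, which help to remove ribonucleotides from DNA, lay between -0.81 and 0.05. RNASEH2A, another RNase H2 subunit on the list, was at -0.70 and -1.20 in PK-1 cells and -0.74 and -1.05 in Panc-1. It thus fell past 2-fold with RARγi-2 in both lines. POLD4, the smallest subunit of polymerase δ and chosen here after its values were seen, rose in PK-1, from 72.8 to 223 and 312 TPM, while it was 130.1, 134 and 131 TPM in Panc-1.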

How the data were processed

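RNA of 6 cultures, 1 per condition, was sequenced from libraries made with a stranded mRNA kit. The authors deposited log2 values of TPM, with 1 TPM as the lowest value. The submitters' processing notes name hg38; the aligner, counter, annotation and use of strand are not given in the sources used here. TPM keep no depth, so no interval was computed.

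The 46 genes, their grouping and the other lists were chosen with earlier results of these data known. Deposited values were converted to TPM, and fold changes were calculated on a log2 scale with a pseudocount of 1 TPM among genes with a mean of at least 5 TPM over the 3 libraries of a line (Python 3.11.15, pandas 2.3.3, NumPy 2.4.6). For a repeated symbol, the entry with the highest mean was kept; 113 symbols were repeated, none of them among the 46. No p-value was computed, because each group is 1 library. The spread used as a yardstick was the scaled median absolute deviation of RARγi-2 minus RARγi-1. The fold change step was tested on simulated data.

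All 46 genes are named. Of 26 further genes, the 3 with the most extreme mean among those past 2-fold in all 4 comparisons and the 3 among those past it in none were named, with POLD4, RNASEH2A and the neighbours of CDC6 added after values were seen. Shared exon bases of at least 100 were read from GENCODE annotation of the same build. They were found for 14 of the 46 genes, and the 4 named are those whose partner reached 5 TPM in a library. POLA2, PRIM1 and POLD1 share 53.7%, 26.0% and 12.1% of their exon bases with a gene on the same strand. MCM2 shares 30.7% with a gene on the other strand. The deposited values hold no entry under the names of these partners, and their part in the results was not tested. Alternatives were other pseudocounts, minimum levels, thresholds, a rescaling by median ratios and summed entries.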

Additional observations from a re-analysis of the deposited data

Results flagged for a closer look

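CDC6 and ORC5 were singled out because both treated libraries lay below the control in PK-1 and above it in Panc-1, while none of these values passed 2-fold. The choice rested on sign alone, and the share of all genes with opposite signs in the 2 lines was not computed. The log2 fold changes of CDC6 with RARγi-1 and RARγi-2 were -0.52 and -0.55 in PK-1 cells and 0.22 and 0.95 in Panc-1. Those of ORC5 were -0.44 and -0.87 in PK-1 cells and 0.69 and 0.47 in Panc-1. The difference between the lines was not tested, since each condition is 1 library, and both treated libraries of a line are set against the same control.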

How the results depend on the processing

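With no pseudocount, a pseudocount of 0.1 TPM, no minimum level, libraries rescaled by median ratios, summed entries or a 1.5-fold threshold, no count moved by more than 1.5 times and no median by more than the spread, and no value past 2-fold changed direction under any alternative. A pseudocount of 5 TPM, which by its construction shrinks the change of low genes, gave a median of -2.02 for all 46 genes in PK-1 with RARγi-2. There it gave -2.90 for MCM2 to MCM7, -2.60 for CDC45 and MCM10, -2.22 for GINS, -1.88 for DBF4-CDC7, -1.86 for fork protection, -1.65 for polymerase α-primase, -1.97 for polymerase ε, -1.60 for polymerase δ and -2.54 for the Okazaki enzymes. In Panc-1 it gave -1.45 for CDC45 and MCM10 and -1.19 for GINS with RARγi-1, and -1.57 and -1.49 for the same sets, -1.47 for polymerase ε and -1.52 for the Okazaki enzymes with RARγi-2. It ended 8 single calls: GINS4 (-0.83), CDC7 (-0.89) and PRIM2 (-0.98) in Panc-1 with RARγi-1, POLA1 (-0.82) and POLD3 (-0.89) in Panc-1 with RARγi-2, and DBF4 (-0.96), PRIM2 (-0.98) and RPA2 (-0.96) in PK-1 with RARγi-1. A mean of at least 20 TPM left 24 genes past 2-fold in PK-1 with RARγi-1, 17 and 20 in Panc-1 with RARγi-1 and RARγi-2, and 14 in all 4. These counts are out of fewer than 46 genes, because members under that mean were left out before counting. They are therefore not to be set directly against the main counts. The medians of the genes left were -2.65 for CDC45 and MCM10, -3.41 for GINS and -3.58 for polymerase α-primase in PK-1 with RARγi-2, -1.54 for CDC45 and MCM10 in Panc-1 with either inhibitor, and -0.96 for DBF4-CDC7, -1.13 for RFC and -1.36 for the Okazaki enzymes in Panc-1 with RARγi-2. A 3-fold threshold gave 24, 14 and 20 genes in the same comparisons as the first 3 counts and 13 in all 4. The shares over all genes are not given for a mean of 20 TPM or a 3-fold threshold.

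Leaving out a replicate was not possible with 1 library per condition. No paired analysis was possible because each group holds 1 library. TPM keep no depth, and 23 of the members' values in treated libraries lay under 5 TPM, where a fold change is least certain.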
